A study of Homo sapiens with 12 samples.

Results

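The D-type cyclins, the kinases they activate, the inhibitors of those kinases and the retinoblastoma protein make up the checkpoint that a cell passes in late G1. Their RNAs were followed through 12 expression arrays of 2 human myeloma cell lines, KMS-34 and KMS-11, and of the carfilzomib-resistant derivative of each. The 10 genes chosen were CCND1, CCND2 and CCND3, CDK4 and CDK6, CDKN1B, CDKN2A, CDKN2C and CDKN2D, and RB1, and every probe set whose annotation named one of them was taken. This gave 24 of the 54613 probe sets on the array, for 9 of the 10 genes. No probe set was paired with CDKN2C in the annotation used, and that gene was not analysed here.

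Both lines are established plasma cell tumour lines that carry the translocation joining NSD2 and FGFR3 to the immunoglobulin heavy chain locus. KMS-34/Cfz and KMS-11/Cfz are cultures selected for growth in 12 nM carfilzomib, an irreversible proteasome inhibitor, and their RNA was taken after 1 week without the drug. KMS-34 and KMS-11 are the parental cultures, which were not selected in carfilzomib, and the labels give medium with 4% serum for all 4 groups, whereas the methods of the study state another serum concentration. Each group had 3 arrays, and each derivative is 1 selected culture of 1 line. Nothing in the sources says that the 3 arrays came from separate cultures, so the p-values measure the spread between these arrays.

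D-type cyclins bind CDK4 or CDK6, and the active kinase phosphorylates the RB1 protein, which then releases the E2F factors that switch on genes for DNA replication. The INK4 proteins, to which CDKN2A, CDKN2C and CDKN2D belong, bind CDK4 and CDK6 and block their pairing with a cyclin, whereas p27, the product of CDKN1B, binds assembled cyclin and kinase complexes. Dysregulation of one of the D-type cyclins is a common feature of myeloma, and lines with the NSD2 translocation usually express CCND2.

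All values below are log2 RMA signals that were centred for each probe set, so 0 is near the middle of the 12 arrays and not the absence of RNA. They carry differences between arrays but no level, and no probe set was set against another in level. A call means a Benjamini-Hochberg adjusted p under 0.05 in limma, adjusted over all 54613 probe sets or, for gene means, over 19775 genes. The lowest correlation between arrays of one group was 0.759 and the highest was 0.949. Array 1 of KMS-34/Cfz stood apart, with an interquartile range of 0.34 against 0.207 to 0.299 on the other arrays. Of 9 plasma cell markers, JCHAIN rose and IRF4, PRDM1 and SLAMF7 fell in KMS-34/Cfz (44.4%, against 10.1% of all genes), and MZB1 and SLAMF7 fell in KMS-11/Cfz (22.2%, against 3.57%). The fold change of SLAMF7 was 0.502 in KMS-34/Cfz and 0.51 in KMS-11/Cfz, and JCHAIN rose by 0.71 on the log2 scale. Among 22 measured markers of B cells, T and NK cells, monocytes, erythroid cells and stroma, 2 fell in KMS-34/Cfz (CD14 and HBB) and none passed the test by limma in KMS-11/Cfz, where none had an unadjusted p under 0.05. Because the values are centred, they do not show which of these markers were at background.

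CCND1, which encodes cyclin D1, fell by 2.62 and by 1.46 on the log2 scale on its 2 probe sets in KMS-34/Cfz, and fell by 0.93 on one of them in KMS-11/Cfz. On probe set 208712_at the arrays of KMS-34/Cfz read -0.29, -0.30 and -0.17, against 2.14, 2.54 and 2.43 in KMS-34. On the same probe set the arrays of KMS-11/Cfz read 0.17, 0.52 and 0.17, against 1.25, 1.16 and 1.23 in KMS-11. In each line every resistant array lay below every parental array.

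The fold change on 208712_at was 0.163 in KMS-34/Cfz over KMS-34, a log2 change of -2.62 ± 0.11 (SE, n = 3 arrays a group, limma adjusted p = 1.5e-08). It was 0.525 in KMS-11/Cfz over KMS-11, a log2 change of -0.93 ± 0.11 (limma adjusted p = 5.4e-04). Under cyclic loess scaling between arrays the KMS-11/Cfz change was -0.57 (limma adjusted p = 0.033). The change in array signal was larger in KMS-34 than in KMS-11 by 1.69 on the log2 scale (limma adjusted p = 4.9e-05). The 95% interval of the difference between the changes ran from -2.04 to -1.35. Without levels, a smaller change cannot be told from a signal nearer to background, so the order of the lines holds for array signal alone. The study's own qRT-PCR of CCND1 in these cells is not reported here.

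On the other CCND1 probe set, 208711_s_at, the change also differed between the lines, by -1.43 for KMS-34 minus KMS-11 (limma adjusted p = 6.2e-04). Its arrays read -0.59, -0.38 and -0.23 in KMS-34/Cfz, against 0.82, 1.21 and 1.14 in KMS-34, a log2 change of -1.46 ± 0.13 (SE, n = 3 arrays a group, limma adjusted p = 1.4e-05). They read 0.11, 0.00 and 0.09 in KMS-11/Cfz, against 0.01, 0.35 and -0.09 in KMS-11. The KMS-11 groups overlapped on this probe set, and the change of -0.03 had a 95% interval from -0.31 to 0.25, which does not meet the interval of -1.17 to -0.68 on 208712_at. The cause of the disagreement between both probe sets in KMS-11/Cfz was not tested.

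Averaged over both probe sets, CCND1 had a log2 change of -2.04 in KMS-34/Cfz (limma adjusted p = 5.9e-08) and of -0.48 in KMS-11/Cfz (limma adjusted p = 0.016). In KMS-34/Cfz both probe sets and the mean kept their call without any 1 array, including array 1 of the group that stood apart, without which 208711_s_at changed by -1.36. In KMS-11/Cfz the probe set 208712_at also kept its call without any 1 array, but the gene mean lost it under cyclic loess (-0.29, limma adjusted p = 0.099). The gene mean of KMS-11/Cfz also lost its call without KMS-11/Cfz array 1 (limma adjusted p = 0.077) or 3 (0.078) and without KMS-11 array 1 (0.058) or 2 (0.084). CCND1 is one of the genes the study itself picked out on these samples, so its change here is no independent evidence of its direction.

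**Figure D1:**
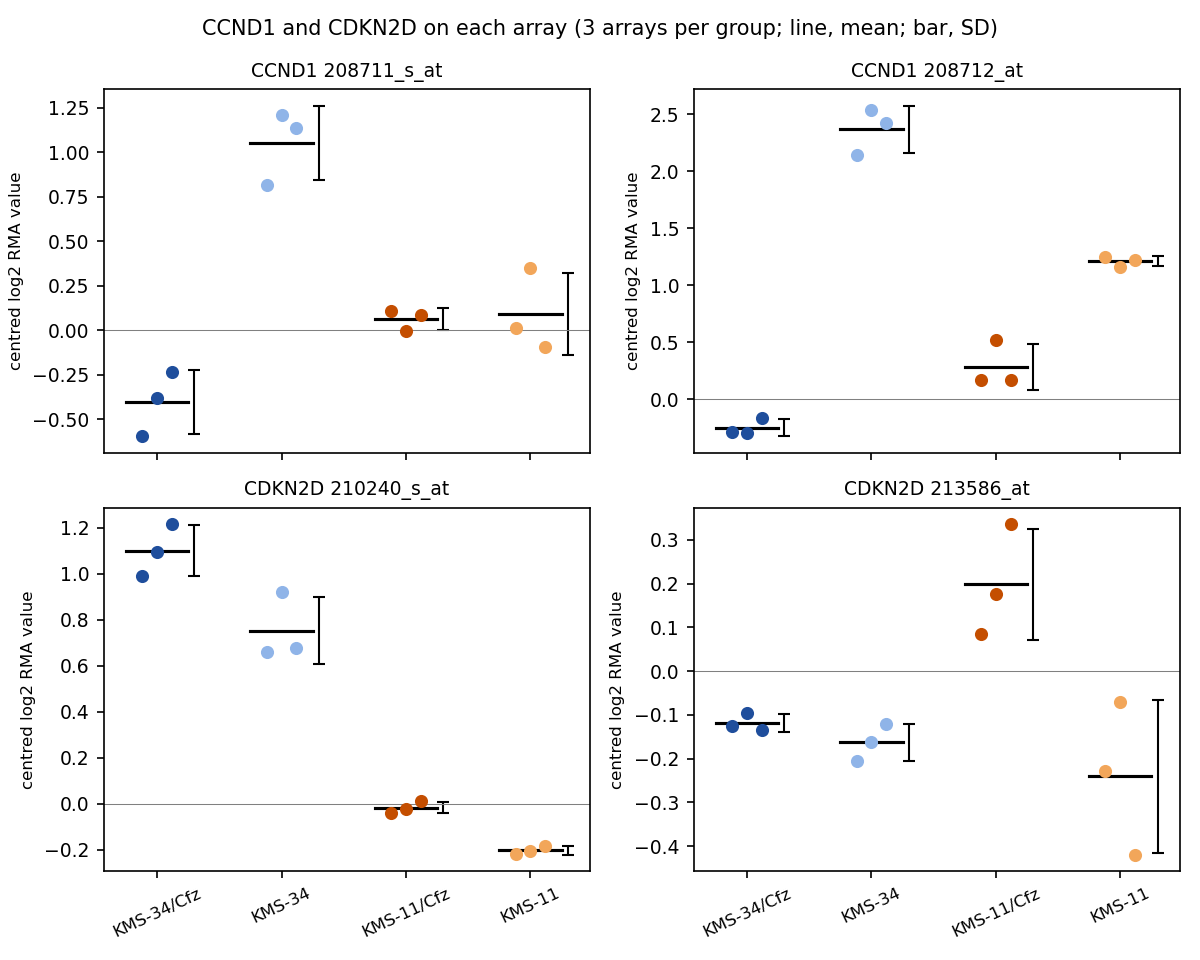
Centred log2 RMA values (y axis, a separate scale in each panel) of CCND1 and CDKN2D on each of the 12 arrays, by group (x axis). Points are arrays, lines are group means and bars are SD of 3 arrays; the 3 KMS-34/Cfz arrays lie below the 3 KMS-34 arrays on both CCND1 probe sets, whereas KMS-11/Cfz lies below KMS-11 on 208712_at alone.

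Counted over all 24 probe sets, calls in the resistant cells were few in number, although their share was above that of all probe sets in each line. In KMS-34/Cfz over KMS-34, 3 of the 24 passed the test (12.5%), 1 higher and 2 lower, against 7.05% of all probe sets. In KMS-11/Cfz over KMS-11, 2 of the 24 passed (8.33%), 1 higher and 1 lower, against 1.75% of all probe sets. All 5 calls lay on CCND1 and CDKN2D, and the median log2 change of the 24 probe sets was 0.01 in KMS-34/Cfz and -0.01 in KMS-11/Cfz, beside -0.01 and 0.00 over all probe sets. The difference between the changes of both lines passed the test for 2 of the 24 probe sets, both of CCND1, against 3.8% of all probe sets.

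The other D-type cyclins gave no call by limma in either derivative, and none of their 6 probe sets had an unadjusted p under 0.05. CCND2, which encodes cyclin D2, read 0.24, 0.44 and 0.48 on probe set 200951_s_at in KMS-34/Cfz, against 0.27, 0.45 and 0.39 in KMS-34. In KMS-11/Cfz it read -0.16, -0.04 and -0.18, against -0.15, -0.09 and -0.17 in KMS-11. Resistant and parental arrays overlapped in both lines.

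Across the 4 CCND2 probe sets the log2 change ran from -0.10 to 0.08 in KMS-34/Cfz and from -0.13 to 0.02 in KMS-11/Cfz. On 200951_s_at the 95% interval of the change ran from -0.16 to 0.20 in KMS-34/Cfz and from -0.17 to 0.19 in KMS-11/Cfz. CCND3, which encodes cyclin D3, had 2 probe sets with changes of -0.05 and 0.06 in KMS-34/Cfz and of 0.06 and 0.11 in KMS-11/Cfz. The widest CCND3 interval was that of 1562028_at, from -0.18 to 0.30 in KMS-34/Cfz and from -0.13 to 0.35 in KMS-11/Cfz.

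The kinases gave no call by limma either, with an unadjusted p under 0.05 for none of their 8 probe sets in KMS-34/Cfz and for 2, both of CDK6, in KMS-11/Cfz. CDK4, a catalytic partner of all D-type cyclins, read 0.47, 0.53 and 0.53 in KMS-34/Cfz, against 0.37, 0.47 and 0.46 in KMS-34. It read -0.05, -0.08 and -0.10 in KMS-11/Cfz, against -0.10, -0.06 and -0.10 in KMS-11. The groups overlapped within each line, with a change of 0.08 (95% interval -0.07 to 0.22) in KMS-34/Cfz and of 0.01 (-0.14 to 0.15) in KMS-11/Cfz.

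CDK6, the other partner, was read by 7 probe sets, and their log2 changes ran from -0.04 to 0.10 in KMS-34/Cfz. In KMS-11/Cfz they ran from -0.38 to 0.37, with 6 of the 7 below 0 and none called. The probe set 243000_at read -2.15, -2.00 and -2.21 in KMS-11/Cfz, against -1.74, -1.78 and -1.76 in KMS-11, with no overlap. Its change of -0.36 ± 0.10 (SE, n = 3 arrays a group) missed the threshold (limma adjusted p = 0.093) but passed it with KMS-11 fitted alone (0.03) and with array weights (0.0093). The probe set 207143_at, with a change of -0.38 (limma adjusted p = 0.16), passed with array weights (0.026). The probe set 231198_at ran the other way, at -0.56, -0.65 and -0.41 in KMS-11/Cfz, against -0.93, -0.78 and -1.02 in KMS-11, a change of 0.37 (limma adjusted p = 0.47).

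**Figure D2:**
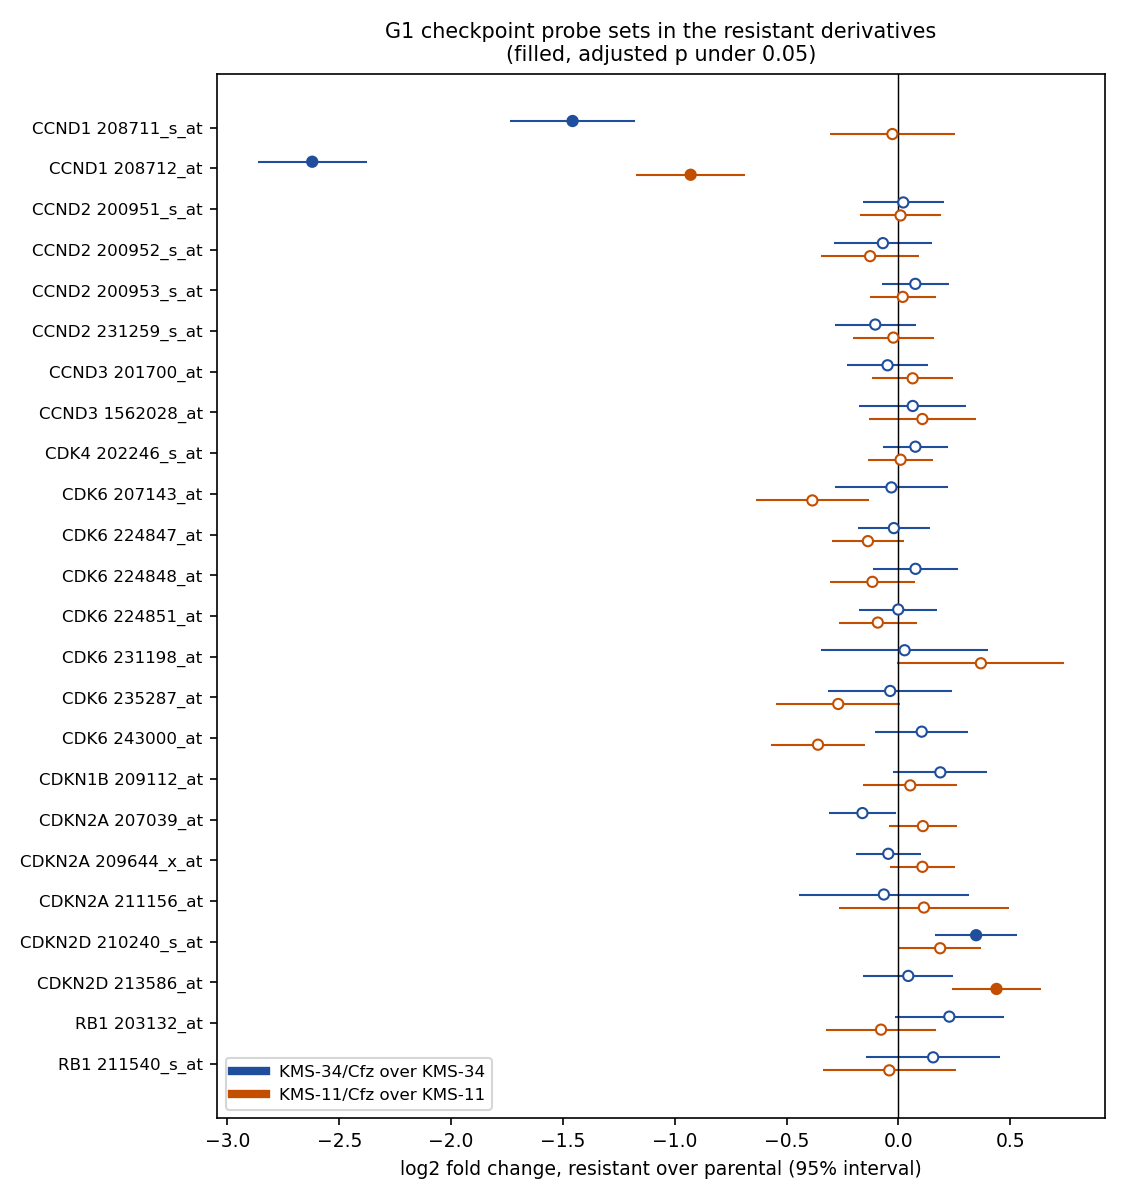
Log2 fold change (x axis) of each of the 24 probe sets (y axis) in KMS-34/Cfz over KMS-34 and in KMS-11/Cfz over KMS-11, with 95% intervals from limma; filled points passed an adjusted p under 0.05. CCND1 lies far to the left in KMS-34/Cfz, at -2.62 and -1.46, whereas the uncalled probe sets of that comparison lie between -0.16 and 0.23.

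Among the inhibitors, CDKN2D, which encodes the INK4 protein p19, passed the test on a different probe set in each line. On 210240_s_at it read 0.99, 1.09 and 1.22 in KMS-34/Cfz, against 0.66, 0.92 and 0.68 in KMS-34, and rose by 0.35 ± 0.09 on the log2 scale (SE, n = 3 arrays a group, limma adjusted p = 0.025). It read -0.04, -0.02 and 0.01 in KMS-11/Cfz, against -0.22, -0.21 and -0.18 in KMS-11, with a change of 0.19 (limma adjusted p = 0.45). In both lines every resistant array lay above every parental array. Groups were separated in this way, in one direction or the other, on 18.2% of all probe sets in KMS-34/Cfz against KMS-34 and on 23.2% in KMS-11/Cfz against KMS-11.

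On 213586_at CDKN2D read -0.13, -0.10 and -0.13 in KMS-34/Cfz, against -0.21, -0.16 and -0.12 in KMS-34, a change of 0.04 (limma adjusted p = 0.89). It read 0.09, 0.18 and 0.34 in KMS-11/Cfz, against -0.23, -0.07 and -0.42 in KMS-11, and rose by 0.44 ± 0.09 (SE, n = 3 arrays a group, limma adjusted p = 0.028). The difference between the changes of both lines was 0.16 on 210240_s_at (limma adjusted p = 0.62) and -0.39 on 213586_at (0.14), neither past the threshold.

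The CDKN2D calls on single probe sets depended on single arrays and on the fit. The one in KMS-34/Cfz ended with that line fitted alone (0.35, limma adjusted p = 0.17), under cyclic loess (0.15, 0.41), without KMS-34/Cfz array 2 (0.072) or 3 (0.089) and without KMS-34 array 1 (0.094) or 3 (0.095). The one in KMS-11/Cfz ended with that line fitted alone (limma adjusted p = 0.059), without KMS-11/Cfz array 2 (0.087) or 3 (0.17) and without KMS-11 array 1 (0.096) or 3 (0.14). The mean of both CDKN2D probe sets rose by 0.31 in KMS-11/Cfz (limma adjusted p = 0.022) and changed by 0.20 in KMS-34/Cfz (0.097). That KMS-11/Cfz call also ended without some single arrays (limma adjusted p up to 0.13). As the average change over both lines, the gene mean rose by 0.25 (limma adjusted p = 0.0054). This call remained without any 1 array (limma adjusted p at most 0.021).

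CDKN1B, which encodes p27, read 0.45, 0.39 and 0.30 in KMS-34/Cfz, against 0.30, 0.28 and 0.00 in KMS-34, a change of 0.19 (limma adjusted p = 0.35). It read -0.07, -0.14 and -0.11 in KMS-11/Cfz, against 0.00, -0.20 and -0.28 in KMS-11, a change of 0.05 (limma adjusted p = 0.95). The arrays overlapped in both lines. CDKN2A, whose locus encodes p16 and, in another reading frame, p14ARF, had changes of -0.16, -0.05 and -0.07 on its 3 probe sets in KMS-34/Cfz and of 0.11 on each of them in KMS-11/Cfz, none called. On 207039_at it read 0.05, 0.13 and 0.21 in KMS-34/Cfz, against 0.25, 0.32 and 0.29 in KMS-34. On the same probe set it read 0.04, -0.01 and -0.01 in KMS-11/Cfz, against -0.10, -0.13 and -0.08 in KMS-11. These arrays lay apart in opposite directions in both lines, but the difference between the changes, -0.27, missed the threshold (limma adjusted p = 0.18).

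RB1, the substrate of the cyclin D kinases, had changes of 0.23 and 0.16 on its 2 probe sets in KMS-34/Cfz (limma adjusted p = 0.32 and 0.66) and of -0.08 and -0.04 in KMS-11/Cfz (0.92 and 0.98). On 203132_at it read 0.15, 0.04 and -0.03 in KMS-34/Cfz, against -0.12, 0.03 and -0.44 in KMS-34. It read 0.17, 0.24 and 0.23 in KMS-11/Cfz, against 0.47, 0.21 and 0.19 in KMS-11. The groups overlapped in each line.

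Between the parental lines more of the checkpoint probe sets passed the test than between resistant and parental cells of either line, as was so for the whole array. CCND1 went the other way in size, with a gene mean that changed by -2.04 in KMS-34/Cfz and differed by 1.06 between KMS-34 and KMS-11. In KMS-34 over KMS-11, 17 of the 24 probe sets passed the test (70.8%), against 34.8% of all probe sets, with 15 higher in KMS-34 and 2 lower, against 17.7% and 17.1%. Because 7 of the 15 read CDK6, the count was also taken over gene means, where 6 of the 9 genes were higher in KMS-34 (CCND1, CDK4, CDK6, CDKN1B, CDKN2A and CDKN2D) and 1 was lower (RB1). This is 77.8% of the genes, against 42.1% of all genes. The arrays of both lines did not overlap on 44.3% of all probe sets.

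CDK6 showed the widest gap. On 243000_at it read 0.31, 0.57 and 0.28 in KMS-34, against -1.74, -1.78 and -1.76 in KMS-11, a fold difference of 4.44 and a log2 difference of 2.15 ± 0.10 (SE, n = 3 arrays a group, limma adjusted p = 2.6e-10). The other 6 CDK6 probe sets were higher in KMS-34 by 1.13 to 1.98. On every CDK6 probe set the 6 KMS-34 and KMS-34/Cfz arrays lay above the 6 KMS-11 and KMS-11/Cfz arrays.

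CDK4 was higher in KMS-34 by 0.52 (limma adjusted p = 2e-05), at 0.37, 0.47 and 0.46 in KMS-34, against -0.10, -0.06 and -0.10 in KMS-11. CCND1 was higher by 1.16 on 208712_at (limma adjusted p = 1.1e-06) and by 0.96 on 208711_s_at (2.8e-05). The parental line with the higher CCND1 signal was the one with the larger fall in array signal, although both comparisons share the KMS-34 arrays. In the resistant cells the order of the lines was the reverse on both probe sets, with all KMS-34/Cfz arrays below all KMS-11/Cfz arrays. The resistant derivatives were not tested against each other, and the share of all probe sets on which they lay apart was not taken.

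The CCND2 probe sets disagreed between the parental lines. The probe set 200951_s_at was higher in KMS-34 by 0.51 (limma adjusted p = 2.1e-04), 200953_s_at was lower by 0.22 (0.023), and the remaining 2 differed by -0.17 (0.23) and -0.11 (0.41). The call on 200953_s_at ended without KMS-34 array 1 (limma adjusted p = 0.069) or 3 (0.051) and without KMS-11 array 1 (0.079) or 3 (0.061). The CCND2 gene mean differed by 0.00 (limma adjusted p = 0.99).

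CCND3 differed by 0.21 on 201700_at (limma adjusted p = 0.069) and by -0.07 on 1562028_at (0.71). The call on 201700_at would be made with array weights (limma adjusted p = 0.042), without KMS-34/Cfz array 1 (0.048) and without KMS-34 array 1 (0.039). CCND3 therefore stood with CCND2 among the genes whose mean gave no call between the lines.

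Of the inhibitors, CDKN2D was higher in KMS-34 by 0.96 on 210240_s_at (limma adjusted p = 4.3e-07) but differed by 0.08 on 213586_at (0.62). CDKN2A was higher by 0.39 on 207039_at (limma adjusted p = 3.6e-04) and by 0.30 on 209644_x_at (0.0024), a probe set of the kind whose probes can match other transcripts. Its remaining probe set, 211156_at, differed by 0.43 (limma adjusted p = 0.082). That probe set read -0.30 on the KMS-34/Cfz array 1 that stood apart and 0.42 and 0.62 on the other 2 of its group, and it passed the test without that array (limma adjusted p = 0.003), without KMS-34/Cfz array 3 (0.044) and with array weights (0.013).

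CDKN1B was higher by 0.35 (limma adjusted p = 0.011), a call that ended without KMS-34 array 1 (0.29, limma adjusted p = 0.052) or KMS-11 array 3 (0.29, 0.058). RB1 was lower in KMS-34 by 0.46 on 203132_at (limma adjusted p = 0.0046), at -0.12, 0.03 and -0.44 in KMS-34, against 0.47, 0.21 and 0.19 in KMS-11, and differed by -0.23 on 211540_s_at (0.24).

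**Figure D3:**
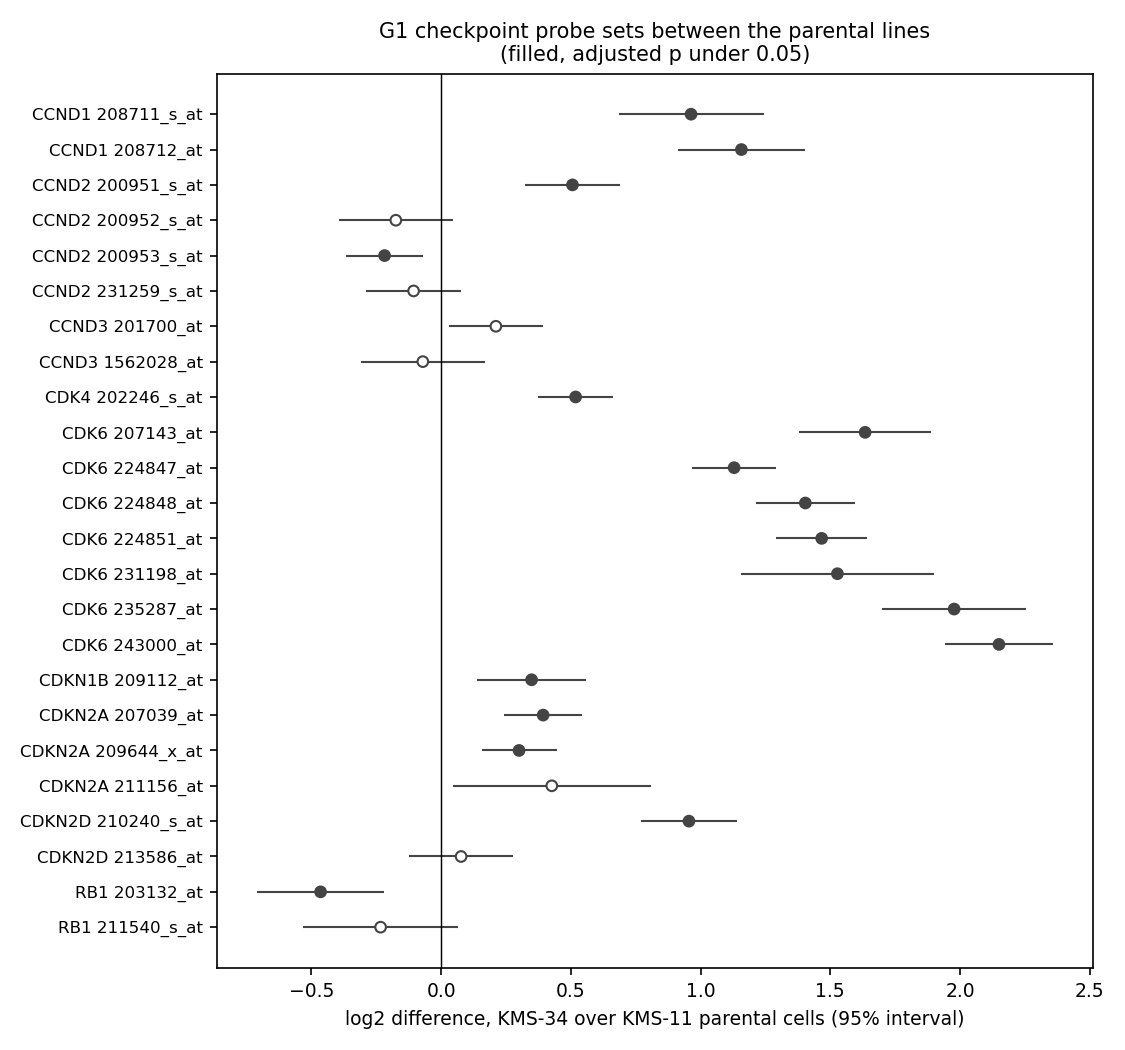
Log2 difference (x axis) of each of the 24 probe sets (y axis) between parental KMS-34 and KMS-11 cells, KMS-34 over KMS-11, with 95% intervals from limma; filled points passed an adjusted p under 0.05. The 7 CDK6 probe sets lie between 1.13 and 2.15, to the right of all others except 208712_at of CCND1 at 1.16.

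**Figure D4:**
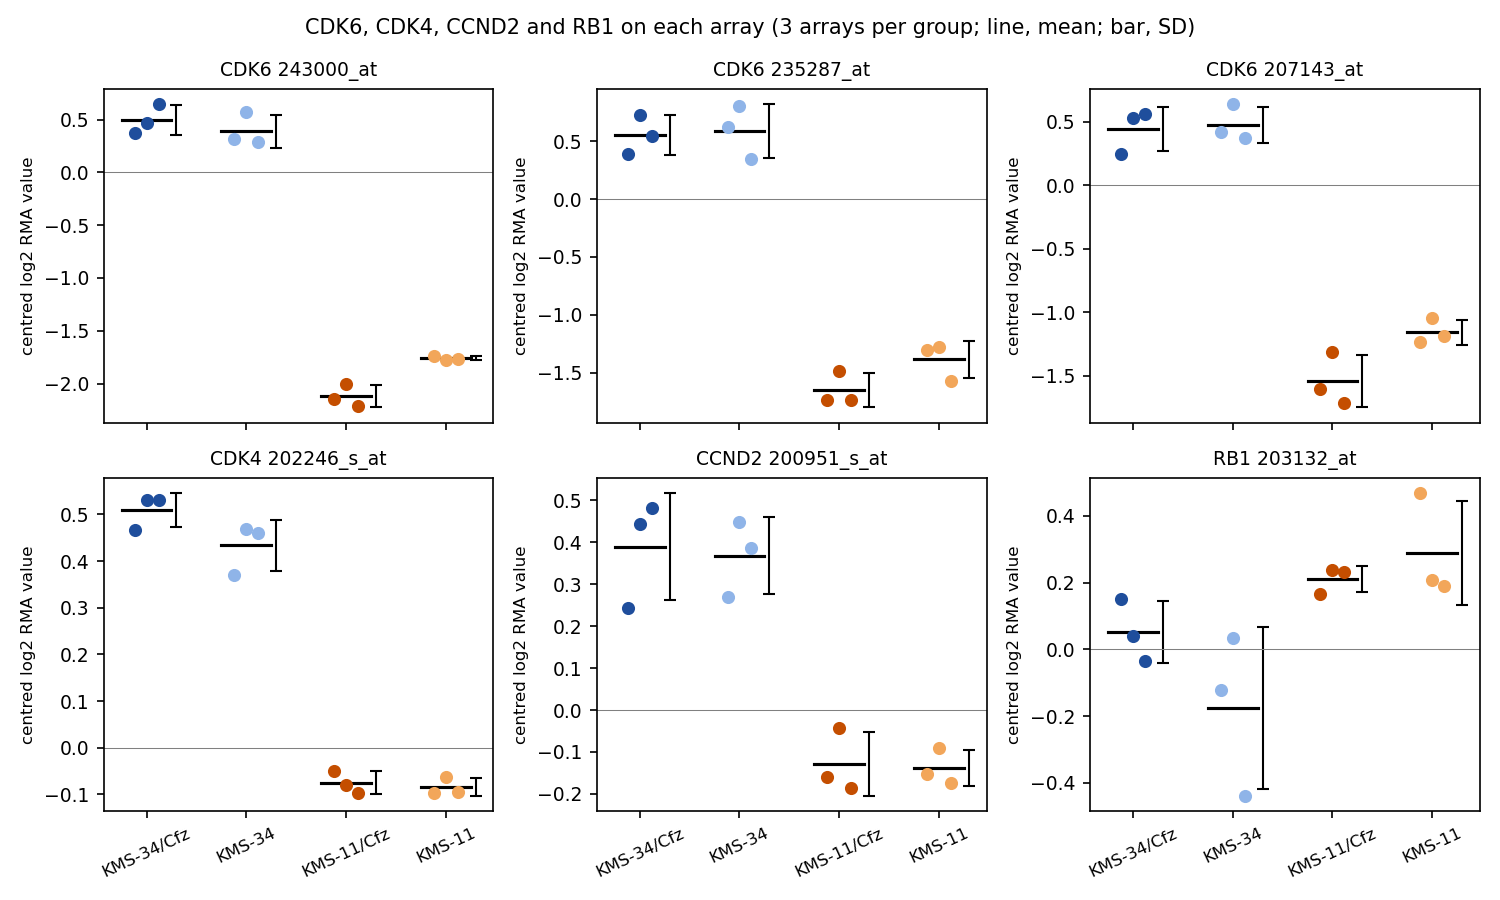
Centred log2 RMA values (y axis, a separate scale in each panel) of 3 CDK6 probe sets and of CDK4, CCND2 and RB1 on each of the 12 arrays, by group (x axis). Points are arrays, lines are group means and bars are SD of 3 arrays; CDK6 and CDK4 split by line, with resistant and parental KMS-34 arrays together above the KMS-11 arrays.

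CDK4 is a known target of MYC, which binds the E-box CACGTG. The MYC gene mean differed by -0.08 in KMS-34 over KMS-11 (limma adjusted p = 0.39), and a link to CDK4 was not tested. Of the genes higher in KMS-34, CDKN1B and CDKN2A are left out here, and the stretches upstream of CDK4, CDK6 and CDKN2D are shown. Each is the 250 bases before a start site in RefSeq's annotation of GRCh38.p14, on the gene's own strand, 5′ to 3′. Capitals mark the E-box in CDK4 and the GC box, GGGCGG or its complement CCGCCC, in CDK6 and CDKN2D.
CDK4: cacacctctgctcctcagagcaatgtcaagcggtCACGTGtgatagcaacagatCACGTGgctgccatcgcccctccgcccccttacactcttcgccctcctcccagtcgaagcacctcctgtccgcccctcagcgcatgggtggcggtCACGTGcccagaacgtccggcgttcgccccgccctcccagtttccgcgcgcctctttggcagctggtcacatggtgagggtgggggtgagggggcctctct
CDK6: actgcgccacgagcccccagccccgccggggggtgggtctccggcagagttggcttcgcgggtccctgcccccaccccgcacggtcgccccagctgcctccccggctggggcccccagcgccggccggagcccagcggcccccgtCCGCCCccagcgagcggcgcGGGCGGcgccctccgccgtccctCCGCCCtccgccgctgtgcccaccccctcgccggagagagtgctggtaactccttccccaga
CDKN2D: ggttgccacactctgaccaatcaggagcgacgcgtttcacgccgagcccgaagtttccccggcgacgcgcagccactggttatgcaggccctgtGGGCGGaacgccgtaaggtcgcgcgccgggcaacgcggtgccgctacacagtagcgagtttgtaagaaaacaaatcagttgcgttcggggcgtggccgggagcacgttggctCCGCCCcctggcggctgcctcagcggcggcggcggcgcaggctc

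The CDK4 stretch, chr12:57752311-57752560 on the minus strand, held 3 E-boxes, which began 216, 196 and 101 bases before the start site. An E-box was present in 6.34% of the 35116 upstream stretches of this length, and 3 or more in 0.0797%. The CDK6 stretch shown, chr7:92836574-92836823 on the minus strand, held 3 GC boxes, the stretch before another annotated CDK6 start site held 0, and that of CDKN2D, chr19:10568980-10569229 on the minus strand, held 2. The CDK4 stretch also held 3 GC boxes, which are not in capitals. A GC box was present in 42.6% of all stretches and 3 or more in 13.9%. Both words were searched on both strands, and a match is a description of the sequence, not a bound site. The KLF core CACCC, E2F sites and the CCAAT box were searched as well, and the motif in capitals was chosen for each gene. The CDK4 and CDK6 stretches shown each held 3 KLF cores, and 3 or more were present in 8.56% of all stretches. None of the stretches shown held an E2F site. Entries were matched for 8 of the 10 genes, the exceptions being CCND1 and CCND2.

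Around CCND1, none of the 8 measured neighbours, 4 on each side in the order of the RefSeq annotation, passed the limma test in either derivative, and 0 and 2 of them had an unadjusted p under 0.05 in KMS-34/Cfz and KMS-11/Cfz. The nearest on one side, MYEOV, had a log2 change of -0.13 in KMS-34/Cfz (limma adjusted p = 0.48) and of -0.34 in KMS-11/Cfz (0.052). Over the 72 neighbours of the 9 genes, 5 rose and 5 fell in KMS-34/Cfz (10 of 72, against 10.1% of all genes) and 1 rose and 2 fell in KMS-11/Cfz (3 of 72, against 3.57%). The calls were not spread evenly, as 3 of the 8 neighbours of CDK6 rose in KMS-34/Cfz and 0 fell. These were ANKIB1 by 0.25, GATAD1 by 0.40 and VPS50 by 0.46, whereas the CDK6 gene mean changed by 0.02. In KMS-11/Cfz 1 neighbour of CDK6 rose and 1 fell. Between the parental lines 24 of the 72 neighbours were higher in KMS-34 and 7 were lower, against 21.6% and 20.5% of all genes. The count higher was 6 of 8 around CDKN1B and 5 of 8 around CDK4, where it took in TSPAN31 by 1.51 and CYP27B1 by 2.07, whereas CDK4 itself differed by 0.52.

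The genes that act beside the members in G1 were taken as a list of 30, all measured. In KMS-34/Cfz 4 rose and none fell (13.3%, against 10.1% of all genes), with a list median of 0.09 beside -0.01 over all genes. CCNE2, which encodes cyclin E2, a partner of CDK2, read -0.74, -0.51 and -0.54 in KMS-34/Cfz, against -1.24, -0.88 and -1.21 in KMS-34, and rose by 0.51 (limma adjusted p = 0.0037). DMTF1, a transcription factor that binds D-type cyclins and activates the ARF promoter, rose by 0.37 (0.004), RBL1, the RB1 relative p107, by 0.33 (0.01), and E2F2, an activating E2F factor, by 0.25 (0.021). Taken as single probe sets, 2 of 2 passed the limma test for CCNE2, 1 of 1 for DMTF1, 1 of 3 for E2F2 and 0 of 4 for RBL1.

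In KMS-11/Cfz 2 of the 30 fell and none rose (6.67%, against 3.57% of all genes), with a list median of 0.04 beside 0.00. SKP2, the ubiquitin ligase subunit that marks p27 for degradation, read -1.16, -1.12 and -1.11 in KMS-11/Cfz, against -0.81, -0.68 and -0.78 in KMS-11, and fell by 0.37 (limma adjusted p = 0.016). CDKN1C, the p27 relative p57, fell by 0.50 (0.024). As single probe sets, 1 of 3 passed the limma test for SKP2 and 2 of 5 for CDKN1C, whose changes ran from -0.71 to 0.07. CCNE1, the cyclin E1 gene, changed by 0.01 in KMS-34/Cfz and by 0.23 in KMS-11/Cfz (limma adjusted p = 0.99 and 0.13), but its 2 probe sets disagreed, with one that rose in each line, by 0.27 and 0.51, and another at -0.26 and -0.05. CDK2 changed by 0.17 and 0.02 and CDKN1A, the p21 gene, by 0.04 and 0.18 in KMS-34/Cfz and KMS-11/Cfz, none called.

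Downstream, 24 of 25 listed S-phase genes under E2F were measured. The list also holds CDK1, CCNB1, MKI67 and TOP2A, which are not confined to S phase. In KMS-34/Cfz 3 rose and 1 fell (16.7%, against 10.1% of all genes), with a list median of 0.13. The replication licensing factors MCM7, CDT1 and MCM6 rose by 0.36 (limma adjusted p = 0.0018), 0.36 (0.0013) and 0.29 (0.018), and CCNA2, which encodes cyclin A2, fell by 0.24 (0.03). As single probe sets, 2 of 2 passed the limma test for each of MCM7 and CDT1, 1 of 2 for MCM6 and 0 of 2 for CCNA2. On the MCM7 gene mean the KMS-34/Cfz arrays read 0.67, 0.82 and 0.86, against 0.42, 0.43 and 0.41 in KMS-34. In KMS-11/Cfz none of the 24 passed the limma test, against 3.57% of all genes, with 6 at an unadjusted p under 0.05 and a list median of 0.07.

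Upstream, 11 of 12 listed regulators of D-type cyclins in myeloma were measured. In KMS-34/Cfz 4 fell and 1 rose (45.5%, against 10.1% of all genes), with a list median of -0.14. Like the other lists, this one was chosen with earlier results of these data known, so the share is a description. None of the 5 calls remained with the line fitted alone. MYC read -0.52, -0.32 and -0.33 in KMS-34/Cfz, against -0.12, 0.02 and -0.09 in KMS-34, and fell by 0.33 (limma adjusted p = 0.0074), with no overlap. IRF4, a transcription factor that myeloma cells depend on, fell by 0.32 (0.014), NSD2, the histone methyltransferase of the translocation, by 0.28 (0.015), and FOXO1, a repressor of D-type cyclin genes, by 0.25 (0.015). MAF, which activates CCND2 in myeloma, rose by 0.31 (0.032). As single probe sets, 1 of 1 passed the limma test for MYC, 2 of 3 for IRF4, 2 of 6 for NSD2, 1 of 3 for FOXO1 and 1 of 6 for MAF. In KMS-11/Cfz ITGB7, a target of MAF, was the one called gene of the list, at -0.23 (limma adjusted p = 0.047), and under cyclic loess its sign turned (0.12, 0.82). The 1 probe set of ITGB7 did not pass when adjusted over all probe sets. FGFR3 changed by -0.14 in KMS-34/Cfz and by -0.07 in KMS-11/Cfz, neither called.

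Of the 13 calls on these 3 lists in KMS-34/Cfz, 3 remained with the line fitted alone (CCNE2, MCM7 and CDT1) and 8 remained without any 1 array. The exceptions were NSD2, lost without KMS-34 array 2 (limma adjusted p = 0.052), MCM6, lost without KMS-34/Cfz array 2 (0.081) or KMS-34 array 3 (0.077), CCNA2, lost without KMS-34/Cfz array 1 or 2 or KMS-34 array 2 (0.058 to 0.1), E2F2, lost without KMS-34/Cfz array 2 or 3 or KMS-34 array 1 or 3 (0.07 to 0.088), and MAF, lost without KMS-11/Cfz array 3, KMS-34/Cfz array 2 or 3 or KMS-34 array 1 or 3 (0.05 to 0.12). All 3 calls in KMS-11/Cfz remained with the line fitted alone, and each ended without 1 array. CDKN1C and SKP2 ended without any KMS-11/Cfz array and without KMS-11 array 2 or 3, at a limma adjusted p of 0.051 to 0.13 and of 0.052 to 0.083. ITGB7 ended without any KMS-11/Cfz or KMS-11 array, KMS-34/Cfz array 2 or KMS-34 array 1 or 3 (0.056 to 0.19).

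**Figure D5:**
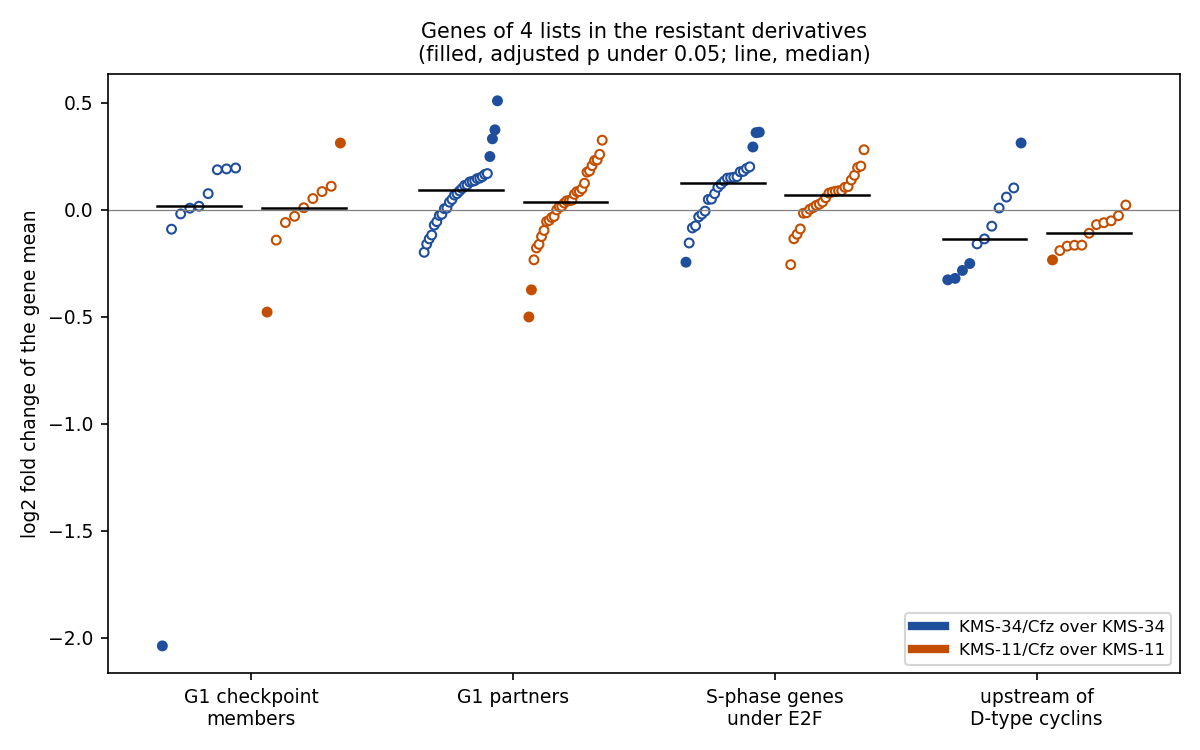
Log2 fold change of the gene mean (y axis) for the measured genes of 4 lists (x axis), in KMS-34/Cfz over KMS-34 and in KMS-11/Cfz over KMS-11; filled points passed an adjusted p under 0.05 and lines are list medians. CCND1 at -2.04 in KMS-34/Cfz lies far below every other gene shown, which stay between -0.50 and 0.51.

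Over the 12 arrays the probe sets most like the widest-ranging one of each D-type cyclin were compared by Pearson's r among 8229 that varied by at least 1 on the log2 scale. For CCND1 they read COL4A5, RPL35A and CAMSAP2, with r of 0.942, 0.941 and 0.938. For CCND2 they read CAMKK2, NADSYN1 and LRRC14, with r of 0.996, 0.995 and 0.994. For CCND3 the highest r was 0.819, with FAT4. The CCND1 matches changed by -0.87 to -0.84 in KMS-34/Cfz and differed by 0.32 to 0.54 between the parental lines. For the CCND2 matches these ranges were 0.01 to 0.10 and 0.81 to 1.11. The 12 arrays share 2 lines and 4 groups, so a split by line or by group alone gives a high r, and these values are descriptions.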

How the data were processed

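RNA of 4 groups was hybridised to Affymetrix U133 Plus 2.0 arrays, 3 to a group. The authors deposited log2 RMA values, in which 99.99% of probe sets have 3 to 9 of 12 values below 0, so each row is taken to be centred; the sources used here do not state the centring or the version of the tool. Background correction and quantile normalisation within RMA remove differences in total RNA between groups, and centring removes levels; the number of arrays limits the precision. A platform annotation table named 1 gene for 41091 probe sets, several for 1801 and none for 11721.

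A mean for each of the 4 groups was fitted to all 12 arrays with limma 3.58.1 in R 4.3.3 (lmFit, contrasts.fit, eBayes, 8 residual degrees of freedom, two-sided), with Benjamini-Hochberg adjustment over all probe sets, or over gene means of probe sets that name the gene alone. The methods of the study name no test for the arrays. The fit was tested on simulated data. The members, the lists and the tests were chosen with earlier results of these data known. The text names every member probe set, genes past the threshold from 3 pathway lists, up to 6 a list and line by size, and a few cyclin partners in all cases; neighbours and like genes are descriptions, those singled out among neighbours having been chosen after their values were seen. Alternatives were each line alone, replicate number as a block, aligned medians, cyclic loess, a variance trend, array weights, a threshold of 0.01, leaving out each array, probe sets that name 1 gene, and the probe set of largest variance for a gene. Figures were drawn with matplotlib.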

Additional observations from a re-analysis of the deposited data

Results flagged for a closer look

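CCND1 was flagged because its change in array signal differed between the lines by a test of the difference itself. Without levels, the order of the lines holds for array signal alone. The change in KMS-34/Cfz over KMS-34 minus that in KMS-11/Cfz over KMS-11 was -1.69 on 208712_at (limma adjusted p = 4.9e-05), -1.43 on 208711_s_at (6.2e-04) and -1.56 on the gene mean (2.6e-05), with all resistant arrays below all parental arrays of KMS-34 on both probe sets. Of the genes on the pathway lists, 5 passed the same test. These were 3 of the 30 G1 partners (10%) and 1 of the 24 genes of the S-phase list (4.17%). The other was 1 of the 11 upstream regulators (9.09%), and the share over all genes was 6.44%. The difference was 0.49 for SKP2 (limma adjusted p = 0.017), which fell in KMS-11/Cfz, 0.42 for DMTF1 (0.022), which rose in KMS-34/Cfz, and 0.48 for MAF (0.03), which rose in KMS-34/Cfz. TFDP1 (0.33, limma adjusted p = 0.041) and CDC6 (0.41, 0.034), each uncalled within either line, are outside the rule for named genes and were chosen after their values were seen. Under cyclic loess SKP2, DMTF1 and MAF missed the threshold, at 0.31 (limma adjusted p = 0.14), 0.30 (0.17) and 0.29 (0.083). The SKP2 difference also missed it without KMS-11/Cfz array 1 (0.47, limma adjusted p = 0.05) or KMS-11 array 2 (0.45, 0.052). The DMTF1 difference missed it without KMS-34/Cfz array 2, KMS-34 array 3, KMS-11/Cfz array 2 or 3 or KMS-11 array 1 (0.36 to 0.43, limma adjusted p 0.051 to 0.065). The MAF difference missed it without KMS-34/Cfz array 2 or 3, KMS-34 array 1 or 3, any KMS-11/Cfz array or KMS-11 array 1 or 2 (0.41 to 0.49, limma adjusted p 0.06 to 0.084). With the probe set of largest variance in place of the gene mean, the MAF difference was 0.17 (limma adjusted p = 0.73).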

How the results depend on the processing

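Of 5141 values of the members and named genes under the alternatives, 4870 kept their direction and side of the threshold or stayed uncalled (141 of the uncalled ones turned sign), 209 lost a call, 61 gained one and 1 reversed, the ITGB7 mean in KMS-11/Cfz under cyclic loess (0.12). The cause was not tested. The probe sets past the threshold numbered 3849 in KMS-34/Cfz, 1293 with the line alone, 9533 with array weights, 1747 at 0.01 and 2408 to 5082 without 1 array. In KMS-11/Cfz they numbered 955, 1666 with the line alone, 2905 with array weights, 439 at 0.01 and 471 to 1447 without 1 array. For the difference between the changes they numbered 2074, 6525 with array weights, 775 at 0.01 and 1184 to 3179 without 1 array. For the mean change they numbered 2643, 6759 with array weights, 1145 at 0.01 and 1636 to 3577 without 1 array. Between the parental lines they numbered 19017, and 16957 to 20641 without 1 array. The genes past the threshold numbered 1996 in KMS-34/Cfz, 754 with the line alone, 5112 with array weights, 1022 at 0.01 and 1340 to 2708 without 1 array. In KMS-11/Cfz they numbered 706, 1374 with the line alone, 2034 with array weights, 302 at 0.01 and 328 to 1067 without 1 array. For the difference they numbered 1274, 4062 with array weights, 539 at 0.01 and 783 to 1935 without 1 array; for the mean change 1552, 3928, 704 and 1008 to 2115; and between the parental lines 8329, and 7528 to 8953 without 1 array. Under cyclic loess 63.6% of called probe sets were higher in KMS-11/Cfz, against 41.7% without it, and 37.9% against 59.6% for the difference between the changes. In KMS-34/Cfz the share higher was 47.4% under cyclic loess, against 54.9% without it. With the replicate number as a block the probe sets past the threshold numbered 4000 in KMS-34/Cfz, 993 in KMS-11/Cfz and 19363 between the parental lines. The replicate numbers did not pair the arrays throughout: of 18 pairs 5 had a correlation above 0.1, and the array's own number was best in 9. Between KMS-34/Cfz and KMS-34 the correlation was 0.52 for number 1, 0.34 for number 2 and 0.07 for number 3. Without levels, a probe set at background cannot be told from one that did not change.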
